A study of Bos taurus with 13 samples.

Results

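Whole blood RNA of dairy cows was described here by the balance of 2 transcripts, *CSF3R*, the receptor for granulocyte colony-stimulating factor and a neutrophil marker, and *CD3E*, a signalling chain of the T cell receptor complex and a T cell marker. The cows were ranked by the log2 ratio of their *CSF3R* count to their *CD3E* count, with 1 added to each, and the 5 cows with the highest and the 5 with the lowest ratio were set against each other, 10 of 13 cows in all. The other 3 cows lay between them and entered neither group. Since the groups were chosen by counts from the same libraries, every difference between them is given as a description without a test, and *CSF3R* and *CD3E* are no result.

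All 13 were lactating, clinically healthy cows from 1 commercial farm, of a breed that the labels call Italian Red Pied and the study Italian Simmental, and none was given a treatment. They came from the upper and lower ends of the herd's ranking on cortisol in milk, 7 with high cortisol (replicates 1 to 7) and 6 with low cortisol (replicates 8 to 13). Blood was drawn into PAXgene tubes, which preserve RNA at sampling, and sequenced without removal of globin transcripts. Each cow gave 1 library, so n counts cows.

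Neutrophils are short-lived phagocytes that leave the bone marrow ready to kill, with preformed granules, a membrane oxidase and receptors for bacterial products and complement. T cells recognise antigen through a receptor whose chains signal by way of the CD3 proteins and kinases such as *LCK* and *ZAP70*. In cattle, T cells with a gamma delta receptor are a large part of the circulating lymphocytes. The ratio of neutrophils to lymphocytes in blood is used as a sign of stress, because glucocorticoids bring neutrophils into the circulation and move lymphocytes out of it. In RNA from whole blood, fewer cells of a type and less RNA per cell cannot be told apart.

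The high-ratio cows were, from the highest down, replicates 8, 2, 10, 12 and 1, with log2 ratios of 2.61, 2.20, 2.13, 1.80 and 1.65. The low-ratio cows were replicates 6, 4, 13, 5 and 7, with 1.502, 1.46, 1.18, 1.04 and 0.776. In the rest of the text, values of single cows stand in this order. The limits of the groups were narrow: the last cow taken into the high group had 1.65 and the first left out 1.55, while on the other side 1.502 was taken and 1.52 left out. The means were 2.08 ± 0.371 (SD, n = 5) and 1.19 ± 0.302 (SD, n = 5).

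Neither gene of the ratio separated the groups by itself. *CSF3R* ranged from 2970 to 6101 CPM, counts scaled to a common library total after TMM normalization, in the high-ratio cows and from 2108 to 3912 CPM in the low-ratio cows. *CD3E* was nearly level in the high-ratio cows, from 945 to 1038 CPM, and wide in the low-ratio cows, from 765 to 1723 CPM. Replicate 4 was lowest in both genes, so it entered the low-ratio group with less of either transcript than any other cow. Per kilobase of exon, both were abundant: *CSF3R* had a mean of 1698.7 RPKM and *CD3E* of 772 RPKM in the high-ratio cows.

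**Figure D1:**
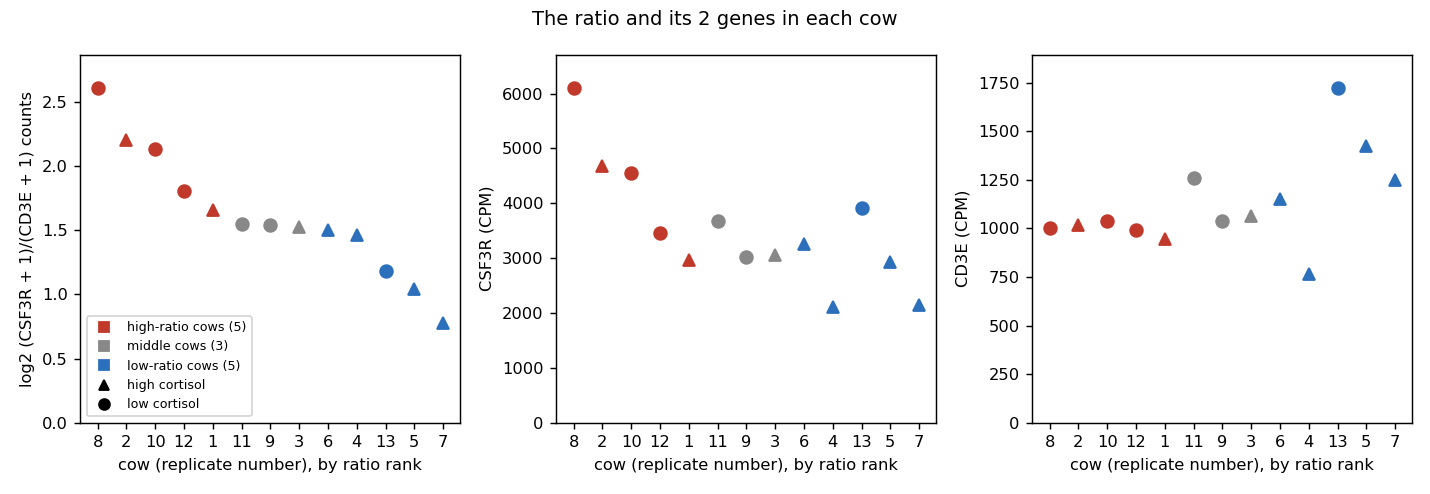
Log2 ratio of *CSF3R* to *CD3E* counts and the TMM-normalised CPM of each gene (vertical axes) in the 13 cows, ordered by the ratio (horizontal axis), where each point is a cow. The ratio fell without a wide gap from 2.61 in replicate 8 to 0.776 in replicate 7, and both single genes overlapped between the groups.

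The depth was alike in both groups, 11045599 to 28124575 counts on named genes in the high-ratio cows and 14298265 to 23709740 in the low-ratio cows. Haemoglobin transcripts took between 0.0258% and 0.0318% of the counts in the high-ratio cows and between 0.0114% and 0.815% in the low-ratio cows. Cortisol labels were spread unevenly, with 2 high-cortisol and 3 low-cortisol cows in the high-ratio group and 4 and 1 in the low-ratio group. Replicate 4 stood apart by its short ribosomal protein transcripts and replicate 8 by its interferon response genes. Leaving out 1 cow was tried for list medians and for genes named by the rule for named genes. Where this moved a printed log2 fold change or a median of some size by over 1.5 times, that value is given beside it. For genes named otherwise, *HBB* and *TRDC* among them, values without single cows were not computed.

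The label of a neutrophil to T cell ratio was checked against other genes of both cell types. When the cows were ranked by the mean level of 17 other neutrophil receptor genes minus that of 20 other T cell receptor genes, 3 of the 5 high-ratio cows and 3 of the 5 low-ratio cows stayed in their group. Replicate 1 moved from the high to the low group and replicate 5 from the low to the high group. The top was alike, since replicates 8, 2 and 10 led both rankings, and replicate 7 was last in both. Replicate 5, the second lowest by the gene ratio, was 5th from the top by the lists. The wider lists therefore bore out the label in the 3 highest cows and in replicate 7, but not in every cow, and the groups are called by their rule, as high-ratio and low-ratio cows.

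**Figure D2:**
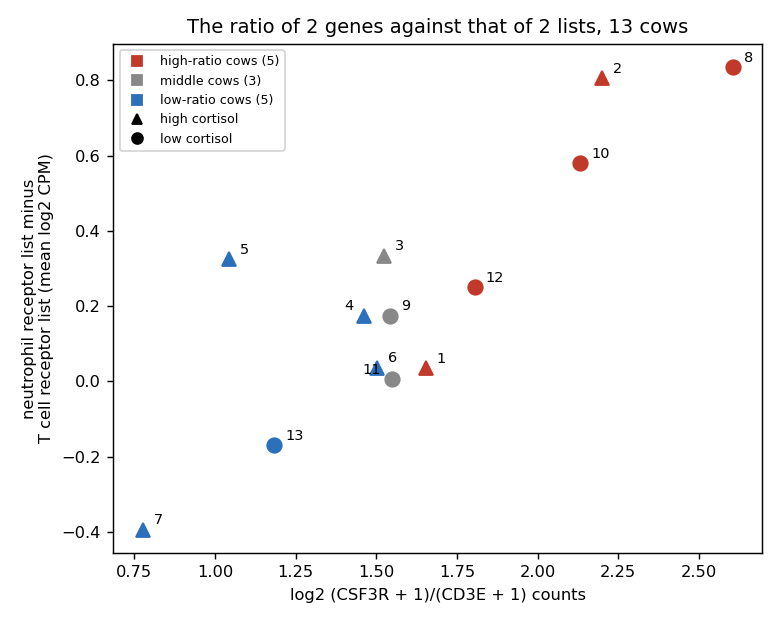
Mean log2 CPM of the neutrophil receptor list minus that of the T cell receptor list (vertical axis) against the log2 ratio of *CSF3R* to *CD3E* (horizontal axis) in 13 cows, numbered by replicate. Replicates 8, 2 and 10 were highest on both axes, replicate 7 was lowest on both, and replicates 1 and 5 changed sides.

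Of 11031 genes that passed the filter on low counts, the 2 ratio genes left out, 31 had all 5 high-ratio cows above all 5 low-ratio cows (0.281% of the genes), and 48 had them all below (0.435%). These 79 genes are called separated. The median log2 fold change of the separated genes was 0.50 for the 31 higher and -0.59 for the 48 lower. A change over 2-fold was found in 5 of the former and 10 of the latter. None of the 31 was on any of the 20 gene lists used here, while 4 of the 48 were, among them *ZAP70* and *GATA3* of the T cell lists and *HBM*, a haemoglobin gene. The lists hold few of the 11031 genes, the largest 53, so these counts say little about the separated genes. These counts depend strongly on how many cows are compared, and only 7 of the 79 genes were still separated with 6 cows in each group. Groups of 5 cows by the ratio of both lists gave more, 140 higher and 134 lower. How many genes a random split of the cows would separate was not computed, so the 79 are not shown to follow the ratio.

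The cows left out of both groups took no part in the choice of the separated genes. Their ratio lay between the groups by the same rule, so they are described here and give no independent support. Their mean lay between the means of the groups in 23 of the 31 higher genes (74.2%) and 40 of the 48 lower genes (83.3%), against 3291 of all 11031 genes (29.8%). A separated gene has a wider gap between its group means than most genes, which leaves more room between them.

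Neutrophil receptors and signalling genes were higher in the high-ratio cows without exception, but by modest amounts. All 17 measured members had a positive log2 fold change, with a median of 0.31, against 4876 of 11031 genes and a median of -0.03 over all genes. None of the 17 was separated. *TLR4*, the receptor for bacterial lipopolysaccharide, had 260, 215, 267, 151 and 156 CPM in the high-ratio cows and 146, 124, 125, 162 and 96.4 CPM in the low-ratio cows, a log2 fold change of 0.68 ± 0.19 (SE). Here the overlap came from a single low-ratio cow, replicate 5. *C5AR1*, the receptor for complement fragment C5a, had 465, 304, 256, 177 and 135 CPM against 210, 186, 194, 186 and 103 CPM, a log2 fold change of 0.61 ± 0.29 (0.32 without replicate 8). *PTAFR*, the receptor for platelet-activating factor, was at 376 to 769 CPM against 310 to 492 CPM, and *TNFRSF1A*, a receptor for tumour necrosis factor, at 449 to 762 CPM against 301 to 529 CPM. In all 4 genes replicates 8, 2 and 10 were the highest cows, and replicates 12 and 1 lay within the range of the low-ratio cows. Receptors with the smallest differences were *SYK*, *IL1R2* and *ITGAM*, between 0.08 and 0.12 on the log2 scale. *CXCR1*, *CXCR2*, *FPR1* and *FPR2* were not matched to a gene name and are not analysed here.

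Granule and antimicrobial genes had a higher median, 0.42, with a wider spread. Of 16 measured members, 13 had a positive and 3 a negative log2 fold change, and none was separated. *ALPL*, the alkaline phosphatase of neutrophil secretory vesicles, had 27.1, 21.3, 26.4, 76.1 and 17.7 CPM in the high-ratio cows and 31.2, 11.1, 16.1, 9.69 and 8.25 CPM in the low-ratio cows, a log2 fold change of 1.14 ± 0.44 (0.60 without replicate 12). Replicate 12 was far above the other high-ratio cows, and replicate 6 was above 4 of them. *MPO*, the myeloperoxidase of the primary granules, was low in every one of these cows, at 4.06 to 13.4 CPM against 4.51 to 7.33 CPM. The calcium-binding protein *S100A8* had a log2 fold change of -0.68 ± 0.50, with 107, 146, 135, 255 and 122 CPM against 219, 682, 132, 90.1 and 102 CPM, where 682 CPM was replicate 4. Without this cow the value was 0.18, of the opposite sign. *ARG1*, an arginase, was near the limit of counting, at 0 to 0.958 CPM against 0.722 to 5.25 CPM (-2.31 ± 0.71), with 1 high-ratio cow at 0. *AZU1*, *PRTN3*, *MMP8*, *CD177* and *CRISP3* were below the filter and *CATHL4* had a count of 0 in all 13 cows, so these granule markers gave no difference at this depth.

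Oxidase and lipid mediator genes had a median of 0.08 over 14 members, with 12 positive and 2 negative, and none was separated. The median lay between 0.13 and 0.25 when replicate 12, 13, 6 or 4 was left out, and was highest without replicate 4. *NCF1*, which organises the subunits of the phagocyte oxidase, had 1177, 1105, 1220, 706 and 471 CPM in the high-ratio cows and 586, 356, 582, 658 and 529 CPM in the low-ratio cows, a log2 fold change of 0.79 ± 0.25. Replicate 1 was the only high-ratio cow within the range of the low-ratio cows. *ALOX5*, the enzyme that starts leukotriene synthesis, had 72.9, 128, 71.1, 28 and 41.5 CPM against 32.4, 35.6, 44.3, 34.0 and 63.5 CPM (0.70 ± 0.34, and 0.36 without replicate 2), with replicate 12 below every low-ratio cow. Its helper *ALOX5AP* ranged from 96.9 to 255 CPM against 87.7 to 161 CPM (0.49 ± 0.25, and 0.28 without replicate 2). *NCF4*, another oxidase subunit, differed least of the named genes, at 305 to 373 CPM against 217 to 324 CPM (0.29 ± 0.13).

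**Figure D3:**
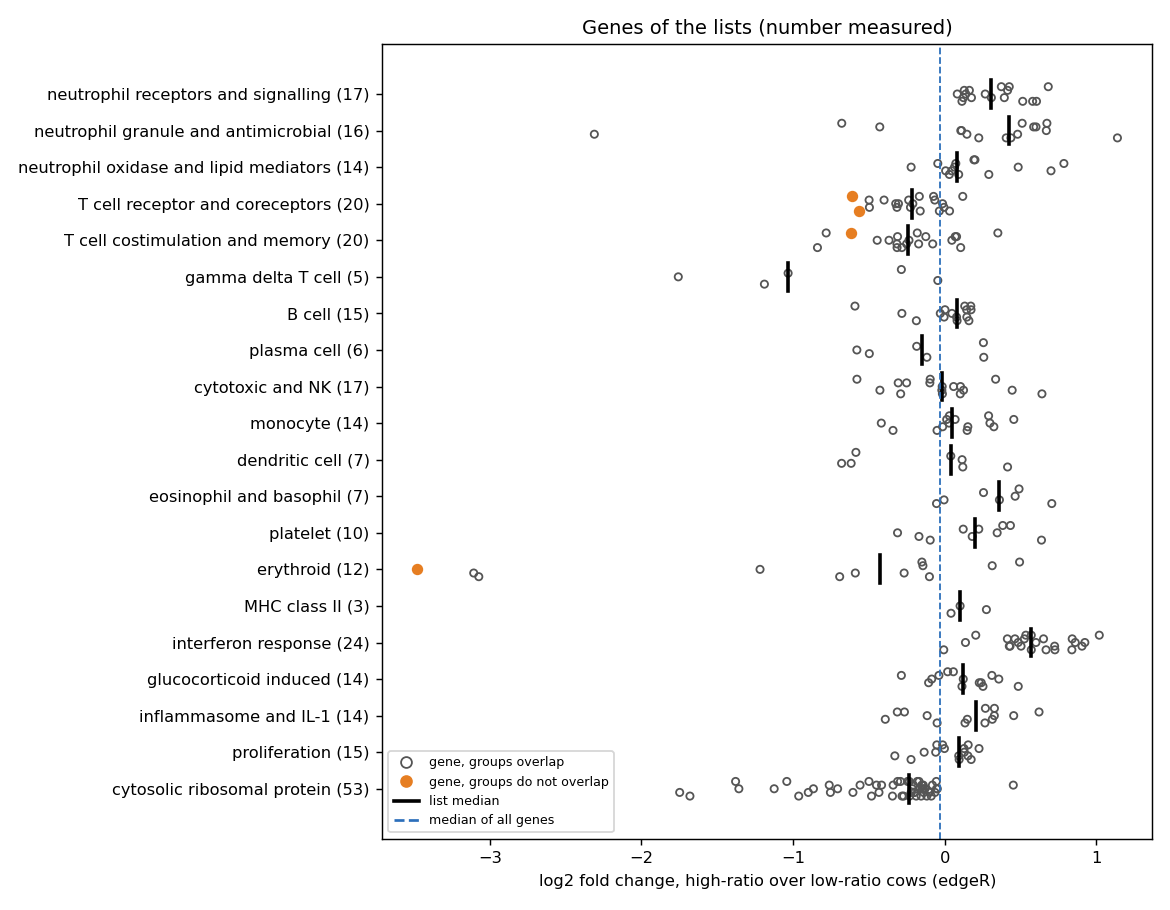
Log2 fold change of high-ratio over low-ratio cows (horizontal axis) of each measured gene of the 20 lists (rows), with list medians as black bars and the median of all genes, -0.03, as a dashed line. All 17 neutrophil receptor genes lie above 0, 18 of 20 T cell receptor genes lie below it, and filled points mark the 4 genes whose groups did not overlap, *ZAP70*, *GATA3* and *HBM* among them.

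T cell receptor and coreceptor genes were mostly lower in the high-ratio cows, by amounts that varied between members. Differences between members were not tested. Of 20 members other than *CD3E*, 18 had a negative log2 fold change, the median was -0.22, and 2 were separated. Without replicate 13, the cow with the most *CD3E*, the median was -0.12 and 13 of 20 were negative. *ZAP70* (chromosome 11, 3016325 to 3056118 on UMD3.1), the kinase that docks on the phosphorylated receptor chains, had 245, 241, 218, 180 and 217 CPM in the high-ratio cows and 381, 363, 342, 280 and 318 CPM in the low-ratio cows, a log2 fold change of -0.61 ± 0.12. Every low-ratio cow was above every high-ratio cow in *ZAP70*, replicate 4 included, although *CD3E* was lowest in replicate 4.

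The receptor chains themselves overlapped between the groups. *CD247*, the zeta chain, had 492, 471, 522, 508 and 471 CPM against 681, 415, 907, 733 and 739 CPM, where replicate 4 had the 415 CPM. *CD3G*, the gamma chain, had 58.5, 60.8, 82.6, 100 and 111 CPM against 146, 168, 95.2, 59.4 and 115 CPM. The log2 fold changes were -0.50 ± 0.17 and -0.50 ± 0.26, the latter -0.32 without replicate 4. Other genes, picked here after their values were seen, lay near 0: *CD4*, the coreceptor of helper T cells, at 0.12, *CD2*, an adhesion molecule, at 0.03, *LCK*, the kinase that phosphorylates the receptor chains, at -0.01, and *CD6*, a costimulatory receptor, at -0.00. The coreceptor chains of killer T cells were lower, *CD8B* at -0.40 ± 0.13 and *CD8A* at -0.21 ± 0.14. The genes near 0 had SEs of 0.15 to 0.16.

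Among the T cell costimulation and memory genes, 15 of 20 had a negative log2 fold change, with a median of -0.24 (-0.16 without replicate 4), and 1 was separated. *GATA3* (chromosome 13, 15984602 to 16002940), a transcription factor of T cell development and of type 2 helper cells, had 14.9, 15.2, 12.3, 11.5 and 11.3 CPM in the high-ratio cows and 19.1, 18.7, 27.5, 19.6 and 15.4 CPM in the low-ratio cows, a log2 fold change of -0.62 ± 0.18. The groups of *GATA3* touched almost, at 15.2 and 15.4 CPM. *BCL11B*, which keeps T cells committed to their lineage, had 7.09, 8.17, 4.26, 7.57 and 4.08 CPM against 12.7, 19.8, 8.18, 8.39 and 6.73 CPM (-0.84 ± 0.32). *IL7R*, the receptor for the survival cytokine interleukin 7, had 53.2, 65.3, 41.5, 34.2 and 39.3 CPM against 75.0, 137, 45.3, 74.5 and 69.7 CPM (-0.78 ± 0.26). *ETS1*, a transcription factor of lymphocytes, ranged from 141 to 190 CPM against 169 to 383 CPM (-0.44 ± 0.22). Replicate 4 was the highest cow in *BCL11B*, *IL7R* and *ETS1*, while it was the lowest in *CD3E*. Without this cow their log2 fold changes were -0.52, -0.49 and -0.16. The summed share of the list, before TMM scaling, was 0.325% to 0.379% of counts in the high-ratio cows and 0.400% to 0.432% in the low-ratio cows. After TMM, the mean centred log2 CPM of the list overlapped between the groups. It was -0.213 to -0.0005 in the high-ratio cows and -0.0377 to 0.210 in the low-ratio cows.

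The largest differences of any lymphocyte list were in the genes of gamma delta T cells. All 5 measured members of 11 were lower in the high-ratio cows, with a median of -1.03, and none was separated. *SOX13*, a transcription factor of the gamma delta lineage, had 13.9, 14.8, 24.4, 40.4 and 30.9 CPM in the high-ratio cows and 107, 19.9, 123, 97.0 and 71.7 CPM in the low-ratio cows, a log2 fold change of -1.76 ± 0.42. *BLK*, a kinase that B cells also use, had 85.0, 76.6, 124, 158 and 121 CPM against 278, 66.9, 391.6, 328 and 222 CPM (-1.19 ± 0.36). *TRDC* (chromosome 10, 22195667 to 22211636), the constant region of the delta chain and here named after its values were seen, had 402, 232, 332, 383 and 335 CPM against 810, 244, 1050, 770 and 571 CPM (-1.03 ± 0.30). In all 3 genes, 4 of the low-ratio cows were above every high-ratio cow, and replicate 4 was within or below the range of the high-ratio cows. Without replicate 4 the median of the list was -1.24. The middle cows were spread over the whole range, with 808, 296 and 590 CPM of *TRDC* in replicates 11, 9 and 3. The WC1 genes, which mark most gamma delta T cells of cattle, were not matched to a gene name and are not analysed here.

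**Figure D4:**
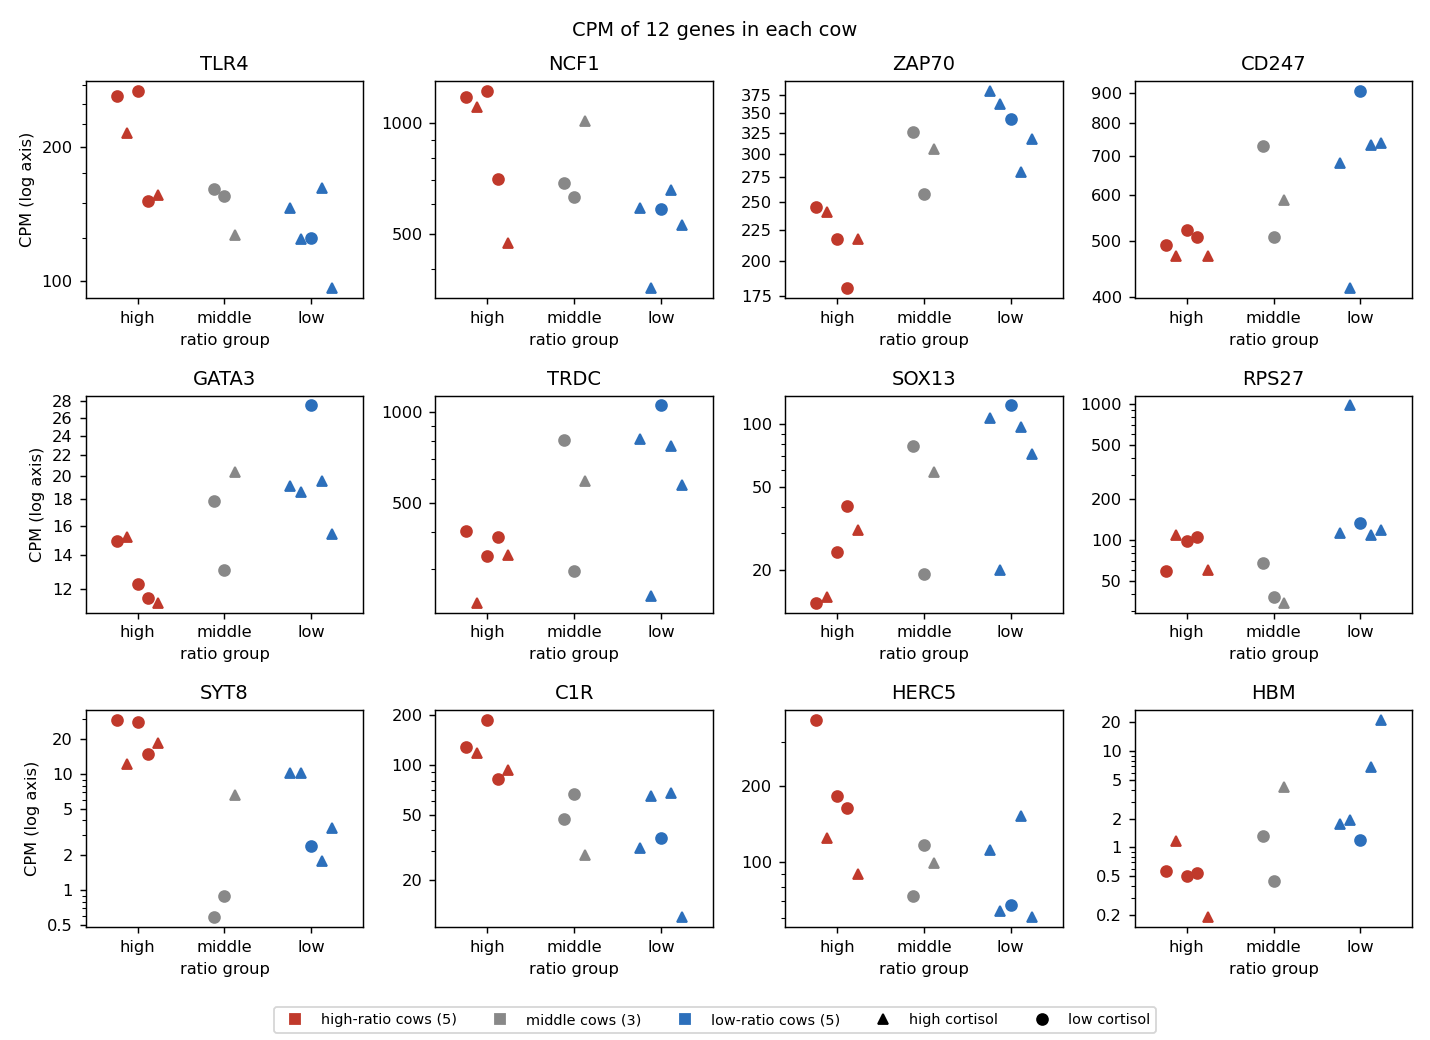
CPM on a log axis (vertical) of 12 genes in the high-ratio, middle and low-ratio cows (horizontal), where each point is a cow. *ZAP70* and *GATA3* do not overlap between the groups, *TRDC* and *SOX13* overlap through replicate 4, and *RPS27* is at 975 CPM in replicate 4 and at 134 CPM or less in every other cow.

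Genes of other blood cells had small medians, and those of the B cell, cytotoxic and NK, dendritic cell, plasma cell and proliferation lists changed sign when single cows were left out. B cell genes were positive in 10 of 15 members with a median of 0.08, and monocyte genes in 10 of 14 with a median of 0.05 (0.23 without replicate 4, and -0.03 without replicate 7). The cytotoxic and NK genes had a median of -0.02 (7 positive, 10 negative), where *GZMA*, a granzyme, had 0.64 ± 0.44 (0.11 without replicate 1), with 28.3 and 43.5 CPM against 6.38 to 11.5 CPM in the other high-ratio cows. Dendritic cell genes had a median of 0.04 over 7 members and MHC class II genes 0.10 over 3 members, among them *CD74*, the invariant chain, at 13994 to 17621 CPM against 10268 to 18086 CPM. Plasma cell genes had a median of -0.15 over 6 members, which was -0.50 without replicate 12 and 0.03 without replicate 13, and *JCHAIN*, which joins antibody units, ranged from 88.7 to 759 CPM in the high-ratio cows alone. Proliferation genes had a median of 0.09, with 8 of 15 positive.

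Eosinophil and basophil genes had a median of 0.36 (0.18 without replicate 2), with 5 of 7 positive, and *ALOX15*, a lipoxygenase abundant in eosinophils, ranged from 108 to 485 CPM against 116 to 241 CPM. Platelet genes had a median of 0.20, with 7 of 10 positive, and medians of -0.13 without replicate 8 and 0.41 without replicate 2. *PPBP*, a platelet chemokine, was at 7.37 to 45.6 CPM against 7.70 to 19.9 CPM (0.64, and 0.23 without replicate 12). No gene of these lists was separated.

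Erythroid genes were lower in the high-ratio cows in 10 of 12 members, with a median of -0.43. *HBM*, the mu globin (chromosome 25, 208739 to 209518), had 0.575, 1.16, 0.508, 0.541 and 0.188 CPM in the high-ratio cows and 1.77, 1.92, 1.2, 6.92 and 21.2 CPM in the low-ratio cows, a log2 fold change of -3.48 ± 0.80. Its groups were nearly in contact, at 1.16 and 1.2 CPM, and the level was a few counts per library in some cows. *HBG* had 3.97 to 7.36 CPM against 2.53 to 162 CPM (-3.11 ± 0.82, and -1.73 without replicate 7) and *HBB*, the beta globin, 265 to 332 CPM against 115 to 7511 CPM (-3.07 ± 0.77). *HBB* and *HBG* are close paralogs whose reads may be shared. The value of *HBB* without replicate 7, the cow with the largest haemoglobin share, was not computed. The difference lay in 4 low-ratio cows, all of them with high cortisol, while replicate 13, the low-ratio cow with low cortisol, was below every high-ratio cow in *HBB* and *HBG*. In the comparison of high with low cortisol by edgeR, 5 of the 12 erythroid genes had an unadjusted p below 0.05. They were *HBB*, *HBG*, *HBM*, *ALAS2* and *CA2*. Over all genes the share was 231 of 11033 (2.09%), and 0 passed adjustment. With the cortisol label as a term in the fit of the ratio groups, the erythroid median was -0.15, with 10 of 12 still negative.

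Cytosolic ribosomal protein genes were lower in the high-ratio cows in 52 of 53 members, with a median of -0.23 (-0.13 without replicate 8), and none was separated. *RPS27*, of the small subunit, had 58.9, 109, 97.9, 105 and 60.3 CPM in the high-ratio cows and 113, 975, 134, 109 and 118 CPM in the low-ratio cows, a log2 fold change of -1.75 ± 0.61. *RPL37*, of the large subunit, had 43.5, 89.1, 62.9, 98.3 and 67.8 CPM against 128, 782, 94.7, 68.8 and 84.0 CPM (-1.68 ± 0.62). Both were far highest in replicate 4. Without this cow the values were -0.45 and -0.37. The summed level of the list was 3.84% to 5.78% of counts in the high-ratio cows and 5.40% to 6.72% in the low-ratio cows.

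Interferon response genes were higher in 23 of 24 members, with a median of 0.57, and none was separated. *HERC5*, the ligase of the ubiquitin-like ISG15, had 365, 124, 182, 164 and 89.7 CPM in the high-ratio cows and 111, 64.1, 67.8, 153 and 60.4 CPM in the low-ratio cows, a log2 fold change of 1.02 ± 0.36. *Mx1*, an antiviral GTPase, had 2254, 602, 578, 1420 and 254 CPM against 448, 224, 736, 921 and 359 CPM (0.93 ± 0.52). Replicate 8 was the highest cow in both, and without it the values were 0.62 and 0.41. The median of the list was 0.27 without replicate 8 and 1.12 without replicate 5, the low-ratio cow with the highest levels. It was 1.16 with groups by the ratio of both lists, and 0.16 with the cortisol label as a term in the fit. Among the high-cortisol cows alone, a comparison of 2 high-ratio with 4 low-ratio cows added after the data had been seen, the median was -0.25 and 5 of 24 genes were positive. The size and the direction of this list depended on which cows were compared. Between high and low cortisol by edgeR, 5 of the 24 genes had an unadjusted p below 0.05, and 0 passed adjustment. Over all genes the unadjusted share was 231 of 11033 (2.09%).

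Genes induced by glucocorticoids had a median of 0.12, with 10 of 14 positive, and none was separated. The median was 0.06 without replicate 8, 0.07 without replicate 2, and 0.18 to 0.21 without replicate 1, 4 or 12. *SGK1*, a kinase that regulates ion transport, had 250, 296, 333, 154 and 212 CPM in the high-ratio cows and 192, 143, 228, 218 and 108 CPM in the low-ratio cows, a log2 fold change of 0.49 ± 0.23. *NFKBIA*, the inhibitor of NF-kB, was at 126 to 270 CPM against 127 to 213 CPM. Other members were picked here after their values were seen. *FKBP5*, *PER1* and *KLF9* had 0.06, -0.04 and -0.11, while *DUSP1*, *ANXA1*, *CXCR4* and *TSC22D3* had 0.31, 0.25, 0.24 and 0.23. Inflammasome and IL-1 genes were positive in 9 of 14 members, with a median of 0.21, led by *IL1A* near the limit of counting and by the receptor antagonist *IL1RN*, at 595 to 1217 CPM against 487 to 884 CPM (0.46 ± 0.22).

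**Figure D5:**
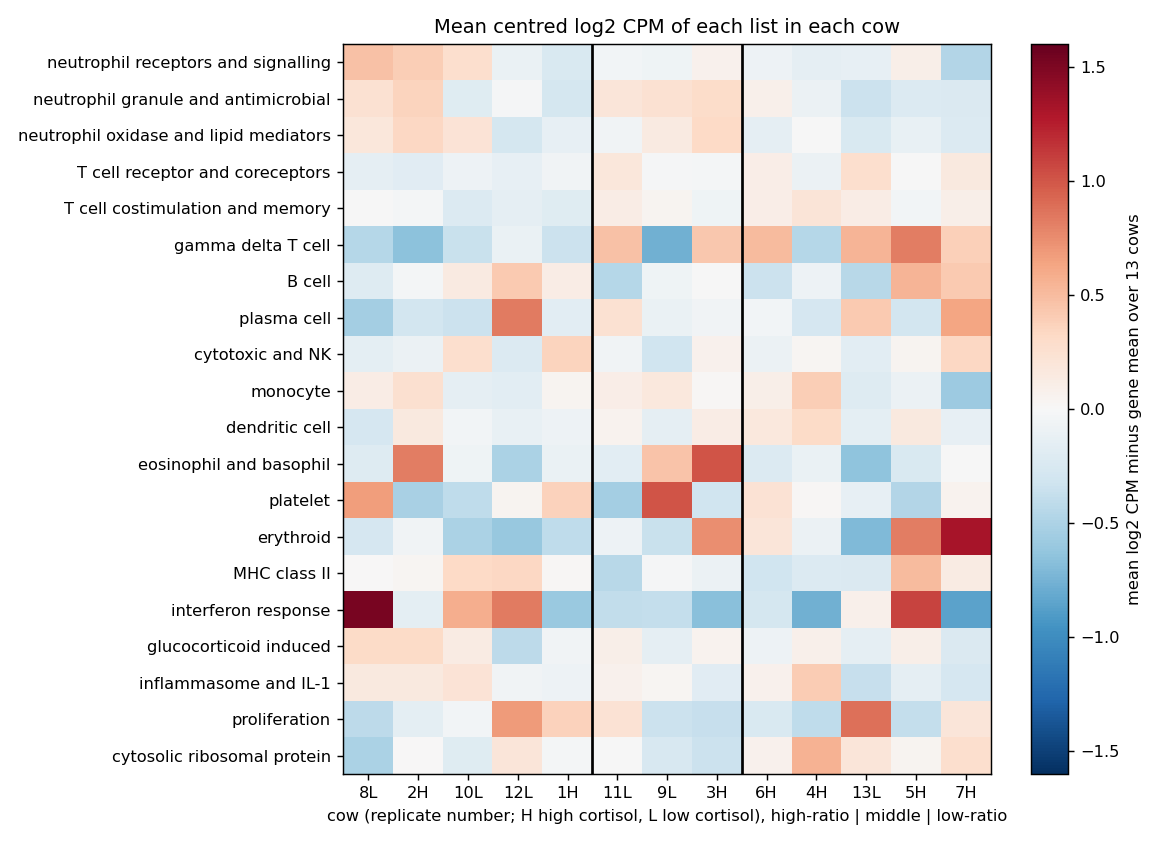
Mean log2 CPM of each list (rows) in each cow (columns, ordered by ratio, with H for high and L for low cortisol), centred on each gene's mean over 13 cows. The neutrophil receptor list reached 0.465 in replicate 8 and -0.465 in replicate 7, the interferon list 1.52 in replicate 8, and the gamma delta list was below 0 in all 5 high-ratio cows and above 0 in 4 of 5 low-ratio cows.

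Outside the lists, the separated genes with the largest differences came from varied functions. *SYT8* (chromosome 29, 50289094 to 50293879), a synaptotagmin of membrane fusion, had 29.3, 12.3, 28.3, 15 and 18.7 CPM in the high-ratio cows and 10.2, 10.3, 2.41, 1.77 and 3.46 CPM in the low-ratio cows, a log2 fold change of 1.89 ± 0.47. In the middle cows it was at 0.586, 0.901 and 6.67 CPM, the first 2 below every low-ratio cow, so *SYT8* did not follow the ratio through all 13 cows. *C1R* (chromosome 5, 103737161 to 103747996), a protease of the classical complement pathway, had 129, 118, 187, 82.0 and 93.7 CPM against 31.5, 64.4, 36.2, 67.3 and 11.9 CPM (1.53 ± 0.38), with 46.8, 66.4 and 28.2 CPM in the middle cows. *SCN4B* (chromosome 15, 29257448 to 29277309), a sodium channel subunit, had 5.21 to 15.2 CPM against 1.86 to 4.17 CPM (1.54 ± 0.34). Smaller differences in the same direction were those of *RNASE4*, a secreted ribonuclease, at 0.75, *PLB1*, a phospholipase, at 0.70, *GGT5*, which cleaves leukotriene C4, at 0.67, *BCAS4* at 0.63 and *TMEM132A* at 0.62.

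Among the separated genes that were lower, *FAM131B* (chromosome 4, 107560495 to 107567847) had 3.75, 4.06, 3.43, 4.60 and 2.44 CPM against 8.59, 6.00, 7.04, 13.5 and 7.05 CPM (-1.21 ± 0.27). *ENPP1*, an enzyme that hydrolyses extracellular nucleotides, had 2.6, 3.65, 4.76, 3.70 and 4.17 CPM against 6.06, 4.85, 12.6, 11.5 and 5.16 CPM (-1.09 ± 0.31), with a gap of less than 0.1 CPM between the groups. *PLEKHA1*, an adaptor that binds membrane phosphoinositides, was at 9.11 to 12.4 CPM against 13.5 to 29.1 CPM (-0.80 ± 0.21). *METTL12*, a mitochondrial methyltransferase, was at 16.9 to 27.0 CPM against 29.6 to 50.4 CPM (-0.76 ± 0.18). The others were *ADCYAP1R1*, the receptor for the neuropeptide PACAP, at -0.65, the amino acid transporter *SLC7A6* at -0.54, *ZNF512B* at -0.53 and *AHDC1* at -0.51.

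Some other separated genes were picked after their values were seen, so they give no support to the label of the ratio. None of the 31 separated genes that were higher was on a neutrophil list. *PLCG1*, a phospholipase of T cell receptor signalling, had 120, 102, 99.4, 114 and 97.1 CPM in the high-ratio cows and 154, 130, 153, 124 and 135 CPM in the low-ratio cows (-0.39 ± 0.11). *CCR4*, a chemokine receptor of type 2 helper and regulatory T cells, had 36.0, 35.9, 33.9, 29.7 and 25.2 CPM against 46.9, 40.1, 56.5, 37.8 and 43.1 CPM (-0.48 ± 0.15). In the other direction, *IFNGR2*, a chain of the interferon gamma receptor, had 424, 444, 486, 395 and 391.9 CPM against 355, 262, 365, 380 and 304 CPM (0.36 ± 0.13). *NFKB2*, of the noncanonical NF-kB pathway, was at 299.5 to 374 CPM against 167 to 296 CPM (0.48 ± 0.15), and *NOD1*, a cytosolic sensor of bacterial peptidoglycan, at 31.2 to 45.9 CPM against 23.6 to 30.4 CPM (0.48 ± 0.14). *TALDO1*, of the pentose phosphate pathway, was at 972 to 1412 CPM against 663 to 957 CPM (0.43 ± 0.15).

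The cows came from both ends of the cortisol ranking, but the cortisol label took no part in the ratio, so the ratio could be tested against it. The mean log2 ratio was 1.45 ± 0.453 (SD, n = 7) with high cortisol and 1.80 ± 0.504 (SD, n = 6) with low cortisol, a difference of -0.35. An exact permutation test, two-sided and with 1716 splits, gave p = 0.210, so no difference was resolved with 7 and 6 cows. The direction, with the lower ratio in the cows with high milk cortisol, was kept when any 1 cow was left out (-0.476 to -0.191, exact p 0.0801 to 0.446). With the ratio of both lists in place of both genes, the difference was -0.0911 and the exact permutation p was 0.661.

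In the comparison of high with low cortisol by edgeR's quasi-likelihood test over 11033 genes, 0 genes (0%) had an adjusted p under 0.05. Before adjustment 231 genes (2.09%) were under 0.05, of them 103 higher and 128 lower with high cortisol. With the ratio of each cow as a covariate, 0 genes passed, and before adjustment 208 (1.89%) were under 0.05, sharing 109 genes with the 231. By DESeq2, 0 genes passed in either fit, with 280 and 256 below the unadjusted threshold. Of the 79 separated genes, 1 (1.27%, *HBM*) was below it without the covariate and 2 (2.53%, *FRZB* and *GJA10*) with it, near the shares of all genes. Taking account of the ratio gave no gene that passed the correction between the cortisol groups.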

How the data were processed

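RNA from whole blood of 13 cows was sequenced, and each cow gave 1 library. The authors deposited counts, the whole number of reads assigned to each gene name, without normalization. The headers of the deposited counts name featureCounts 1.4.6-p3 with exons grouped per gene name, on Ensembl release 88 models for UMD3.1, with no option for strand or read pairs, so overlapping genes on opposite strands cannot be told apart. The methods and submitters' notes name STAR 2.7.3, featureCounts of Subread 1.6.5 and ARS-UCD1.2 instead. The headers also name a goat folder for the alignments, with animal numbers that differ from those of the tables. Groups are from the sample labels, and positions are on UMD3.1. Genes without a name share 1 entry with 13.9% to 16.7% of the counts of a cow, and it was left out.

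TMM factors and edgeR's filter (minimum count 10, minimum total 15) were computed over 13 cows, and 11033 of 16095 named genes passed. CPM are counts scaled to a common library total of named genes after TMM. Log2 fold changes with standard errors, the fold change over the square root of the F statistic, are from edgeR 4.0.16 (quasi-likelihood, R 4.3.3), fitted on the 10 cows without covariates. No p was computed for the ratio groups. The cortisol label was tested over all genes with Benjamini-Hochberg adjustment, and DESeq2 1.42.0 was an alternative. The steps were tested on simulated data with 200 changed genes. Other settings were another ratio from lists, 4 or 6 cows a group, a slope over 13 cows, RLE factors, other filters, haemoglobin genes left out, the cortisol label as a term, and each cow left out. A comparison within high-cortisol cows was added after seeing the data.

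The groups, the 20 gene lists and the rule for named genes were chosen with earlier results of these data known. The genes named are, of each list, the 2 members with the largest log2 fold change in size (4 for the neutrophil, T cell receptor and T cell costimulation lists), and outside the lists the 8 highest and 8 lowest among separated genes with a mean of at least 5 CPM. Other genes were named after their values were seen. 1 gene that the rule names is not reported here. At these depths a count of 0 allows up to 3 counts, or 0.107 to 0.272 CPM, which covers counting error only. The methylation data were not used here.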

Additional observations from a re-analysis of the deposited data

Results flagged for a closer look

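Within the groups of 5 cows, 89 measures were examined for a cow far from the others at the 95% level of Dixon's test, 356 comparisons in all. Chance flags about 1 in 20 groups, so about 8.9 were to be expected, and 14 were found.

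Among the high-ratio cows, replicate 12 was far above the others in 6 of them. Its plasma cell score was 0.832, with *JCHAIN* at 759 CPM and *IRF4*, a transcription factor of plasma cells, at 37.5 CPM. It also had *ALPL* at 76.1 CPM, *S100A8* at 255 CPM and *AHDC1* at 11.6 CPM.

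Among the low-ratio cows, replicate 4 was far above the others in *RPS27* at 975 CPM, *RPL37* at 782 CPM, *S100A8* at 682 CPM and *ETS1* at 383 CPM. Replicate 7 was far above in *HBM* at 21.2 CPM and *HBG* at 162 CPM, and far below in *C5AR1* at 103 CPM. Replicate 13 had *MCM2*, a helicase subunit of DNA replication, at 79.1 CPM. What set these cows apart was not tested.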

How the results depend on the processing

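The counts of separated genes changed with the number of cows, while list medians mostly did not. With 4 cows a group, 112 genes were higher and 120 lower, and with 6 cows 4 and 3, since fewer cows overlap less by construction. With groups set by the ratio of both lists, 140 were higher and 134 lower, and 0 of the 79 genes were among them, which the change of sides of replicates 1 and 5 makes impossible in the same direction. Leaving out 1 cow gave 39 to 114 higher and 68 to 145 lower. RLE factors, other filters and leaving out haemoglobin genes gave 31 to 38 higher and 40 to 59 lower.

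Of the list medians over 21 other settings, 411 moved by less than 1 SD within the groups, though small medians near 0 changed sign often, B cell, cytotoxic and NK, and proliferation in 7 settings each, dendritic cell in 6, platelet in 3 and MHC class II in 2. In 3 cases the sign changed with a move of over 1 SD. The eosinophil and basophil median was -0.053 with 6 cows a group, the proliferation median -0.53 with groups by the list ratio, and the interferon median -0.25 within the high-cortisol cows, a setting chosen after seeing the data. The cause was not tested. The 3 neutrophil lists, both T cell lists and the gamma delta, ribosomal, erythroid and glucocorticoid lists kept their sign in all 21 settings. Of the fold changes of genes named by the rule for named genes, 1336 moved by less than 1 SD and 45 by more. In each setting tried, 0 genes passed between the cortisol groups. No paired analysis was possible because the cortisol groups share no replicate number. Low genes such as *ARG1* and *HBM* rest on few counts.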

Other observations

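The 3 cows in neither group held some of the extreme values of eosinophil and granulocyte genes. Replicate 3 had 802 CPM of *ALOX15* and 47.0 CPM of *IL5RA*, the interleukin 5 receptor of eosinophils, against at most 485 and 26.4 CPM in the 10 grouped cows. It was also highest in *MPO* at 38.9 CPM and *ALOX5* at 255 CPM, against at most 13.4 and 128 CPM. Its log2 ratio of *CSF3R* to *CD3E* was 1.52, so these genes were not ordered by the ratio. With 6 cows a group, which takes replicate 3 into the low-ratio group, the log2 fold changes of *MPO* and *ALOX5* were -0.36 and -0.24. Replicate 9, another of these cows, had the highest platelet score, 1.01.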
